A study of Homo sapiens with 6 samples.

Results

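HCCLM3 is a human hepatocellular carcinoma cell line, and its transcript response to TGF-β1 is described here from 1 library without ligand and 1 library with it. Genes were kept where either HCCLM3 library held at least 10 CPM (counts scaled by library size) and where the deposited counts were whole numbers in all 6 libraries of the study. A fractional count can arise where a read is divided among several genes, and the second condition was meant to avoid reads shared between copies. How the fractions arose in these files is not stated. The files listed 22091 gene IDs, 9643 reached 10 CPM in HCCLM3, 4945 of these had a fractional count, and 4698 remained as members. The members held between 48.7% and 49.6% of the counts of a library. The members nearest the threshold were ADSS1 (9.82 CPM in the control, 10.02 with ligand), VWA8 (10.04 and 7.94) and UPF3A (10.04 and 8.91), and those just under it were EBF1 (9.98 and 7.94), ZFP62 (9.98 and 9.49) and JAG2 (9.98 and 6.83).

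The study grew 3 hepatocellular carcinoma lines, HCCLM3, MHCC97L and MHCC97H, in serum-containing medium and sequenced each line once as a control and once after 4 h with TGF-β1 at 2.5 ng/mL. MHCC97L and MHCC97H were cloned from a common parental tumour line, and HCCLM3 was later raised from MHCC97H by way of lung metastases, so the lines are related and are not independent tumours. Library totals ran from 18485041 expected counts in the HCCLM3 control to 23242862 in MHCC97H with ligand, and the HCCLM3 library with ligand held 21257080. With 1 library for each line and condition there is no replicate, no test and no p-value. The labels do not say whether the libraries came from separate cultures. Each 95% interval below covers the counting error of 2 libraries only and no spread between cultures. The reads carried no molecular identifiers, and the intervals treat every read as a separate count.

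TGF-β1 is a secreted cytokine that binds a type II receptor, which activates a type I receptor kinase. The type I kinase phosphorylates SMAD2 and SMAD3, which enter the nucleus with SMAD4 and act on target genes together with other factors such as AP-1. Inhibitory SMAD7 and the membrane protein PMEPA1 are induced by the pathway and restrain it, and in liver the cytokine is known for growth arrest of hepatocytes, for epithelial to mesenchymal change and for activation of stellate cells.

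HCCLM3 carried little RNA of differentiated hepatocytes. In the control library ALB, the major plasma protein of hepatocytes, stood at 1.43 CPM, AFP at 3.24, SERPINA1 at 0.85 and GPC3 at 0. Keratins KRT8 and KRT18 and the liver factor HNF4A were well above the 10 CPM threshold but had fractional counts, so they are not members. Of the markers of other cells, 0 of 10 endothelial, 2 of 12 stellate cell and fibroblast (LUM and COL3A1) and 2 of 12 leukocyte markers (CD68 and CD79A) reached 10 CPM, while ACTA2, DES, THY1, FAP, PTPRC and CD3E were at or near 0. HCCLM3 is a cultured line, and a bulk library cannot tell whether a low level comes from few of its cells or from little RNA in each.

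Most members moved little. On the log2 scale (TGF-β1 minus control, CPM with a prior count of 2) the median change was -0.002, 3559 of 4698 members lay within 0.25 of no change, and the 5th and 95th percentiles were -0.374 and 0.486. The interval lay above 0 for 1155 members, below 0 for 1123, and held 0 for 2420. A change of 2-fold or more between the libraries is called a rise or a fall below. By that measure 54 members rose, which is 1.15% of the members, and 10 fell, which is 0.213%. At 1.5-fold, 161 members (3.43%) were higher and 69 (1.47%) were lower. Of the 54 that rose, 20 reached 10 CPM only in the library with ligand, and of the 10 that fell, 6 reached it only in the control, so the threshold on either library favours them. Among the 4507 members at 10 CPM in both libraries, 34 rose (0.754%) and 4 fell (0.0888%). Over all 9643 IDs at the threshold, fractional ones included, 108 rose (1.12%) and 28 fell (0.29%). The median genomic span in GENCODE 29 was 23.9 kb with 8 exon blocks for the genes that rose and 21.8 kb with 6 for those that fell, against 33.1 kb and 12 over all members. At 1.5-fold it was 24.2 kb with 8 blocks for the higher members and 68.1 kb with 14 for the lower ones, so the order of the directions depended on the fold.

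**Figure D1:**
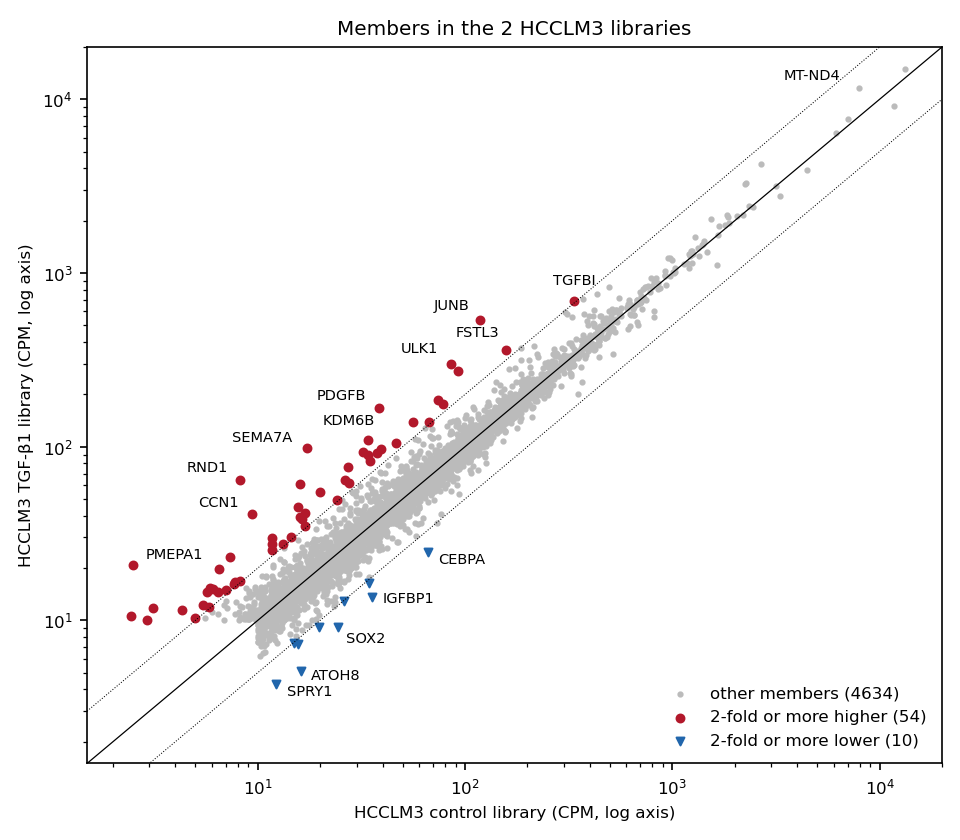
Each point is 1 of the 4698 members, placed by its CPM in the HCCLM3 control (horizontal, log axis) and in the HCCLM3 library with TGF-β1 (vertical, log axis). The solid line marks equal levels and the dotted lines 2-fold; the 54 members that rose reach from 2.44 CPM in the control (CLDN14) to 336 CPM (TGFBI), and the 10 that fell from 12.3 CPM (SPRY1) to 66.2 CPM (CEBPA).

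The windows around the annotated start of 4 genes that rose are shown first, because they hold sequences linked to factors that act with or after SMADs. RefSeq windows (GRCh38.p14, 250 bases before to 50 after a start) were matched by symbol for 43 of the 54 genes, giving 73 windows, since a gene can have several starts. CCN1, RND1 and IGFBP1 had no entry. Capitals mark the motif found on either strand: CAGACA, a SMAD-type element, in PMEPA1, and GGAATG, the core bound by TEAD factors, in CCN2. In FSTL3 and EGR2 they mark letters that match the CArG box, the element of serum response factor. The 4 windows were chosen after the changes and motifs were seen, because they hold one. PMEPA1 and EGR2 also have windows that are not shown, which hold a different motif or none.

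PMEPA1 (chr20:57710528-57710827, minus strand): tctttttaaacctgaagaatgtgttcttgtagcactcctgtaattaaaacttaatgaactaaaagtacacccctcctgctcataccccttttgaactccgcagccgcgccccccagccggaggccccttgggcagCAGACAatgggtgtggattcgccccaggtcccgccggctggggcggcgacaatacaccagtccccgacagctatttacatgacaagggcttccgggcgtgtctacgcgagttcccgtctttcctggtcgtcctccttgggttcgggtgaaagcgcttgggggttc
CCN2 (chr6:131951323-131951622, minus strand): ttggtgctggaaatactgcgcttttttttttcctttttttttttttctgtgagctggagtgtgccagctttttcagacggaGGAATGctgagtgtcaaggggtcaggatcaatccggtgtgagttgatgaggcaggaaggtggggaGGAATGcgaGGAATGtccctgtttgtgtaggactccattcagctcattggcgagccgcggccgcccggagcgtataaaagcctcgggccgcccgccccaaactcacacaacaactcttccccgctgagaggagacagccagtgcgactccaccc
FSTL3 (chr19:676142-676441, plus strand): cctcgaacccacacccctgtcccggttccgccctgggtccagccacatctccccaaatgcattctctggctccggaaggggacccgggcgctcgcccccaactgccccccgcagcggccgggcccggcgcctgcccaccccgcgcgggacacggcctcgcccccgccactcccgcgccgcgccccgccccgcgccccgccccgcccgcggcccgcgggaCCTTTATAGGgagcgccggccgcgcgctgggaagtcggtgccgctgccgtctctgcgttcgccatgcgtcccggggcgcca
EGR2 (chr10:62816317-62816616, minus strand): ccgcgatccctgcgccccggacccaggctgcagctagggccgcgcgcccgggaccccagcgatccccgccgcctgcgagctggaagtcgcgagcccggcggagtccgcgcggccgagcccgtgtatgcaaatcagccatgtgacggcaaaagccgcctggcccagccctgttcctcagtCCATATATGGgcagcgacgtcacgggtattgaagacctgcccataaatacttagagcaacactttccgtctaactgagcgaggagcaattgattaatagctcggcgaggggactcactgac

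The CCN2 window holds GGAATG 3 times, beginning 169, 104 and 95 bases before the start. The CArG matches begin 31 bases before the start in FSTL3 and 71 before the start of the window shown for EGR2. Among the 6 motifs searched, the CArG box stood in 5.48% of the 73 windows of genes that rose (EGR2, FSTL3, KLF7 and PDGFA), in 1.2% of 5742 windows of all matched members and in 1.29% of 35116 RefSeq windows. TGACGTCA, the cyclic AMP response element, stood in 6.85%, 3.22% and 1.85% of the same 3 groups, and 2 of its windows belong to 1 gene, ACOX3. CAGACA gave 15.1%, 12% and 16.9%, and GGAATG gave 15.1%, 10.9% and 14%. The AP-1 element TGANTCA gave 4.11%, 4.89% and 7.71%, and the palindrome GTCTAGAC gave 0%, 0.139% and 0.202%. TGANTCA and TGACGTCA do not contain each other, the motifs were written after the changes were known, and a match describes the letters of a window without showing a bound site. Counted only over genes with a single window, the CArG box stood in 1 of 26 genes that rose (3.85%) and in 0.996% of members. TGACGTCA stood in 3.85% and 4.06% on that count, so its higher share among the rises was not kept. CAGACA stood in 19.2% (5 of 26) and 10.5%, and GGAATG in 15.4% (4 of 26) and 9.96%. TGANTCA stood in 7.69% (2 of 26) and 3.51%, and GTCTAGAC in 0% and 0.185%. Over 22114 RefSeq genes with a single window, CAGACA stood in 17.1%, GGAATG in 14.4%, TGANTCA in 8.05% and TGACGTCA in 2.01%. The CArG box stood in 1.26% of them and GTCTAGAC in 0.222%. Among 34 members 1.5-fold or more lower, GGAATG stood in 26.5% and CAGACA in 14.7%. No share was tested.

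The member with the largest change was PMEPA1, which lies on chromosome 20 at 57648392 to 57711536 (GRCh38, minus strand). Its level in HCCLM3 was 2.50 CPM in the control and 20.7 with ligand, a log2 change of 3.004 (2.61 to 3.52). The levels were 21.0 and 187 CPM in MHCC97L and 13.0 and 154 in MHCC97H. All 3 lines thus had high PMEPA1 with ligand relative to their own control, and HCCLM3 was the lowest line in both conditions. The transcript NKILA lies on the opposite strand over PMEPA1 exons, and the use of strand in the counting was not stated by the labels or the files. SMAD7, the inhibitory SMAD, was at 26.44 and 64.65 CPM in HCCLM3, a change of 1.29 (1.14 to 1.44) beside 1.05 in MHCC97L and 1.23 in MHCC97H.

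Among the receptors and carriers of the pathway no member reached 2-fold. Over all members 1.15% rose and 0.213% fell, so a count of 0 of 10 is near the background and is not a result about them. TGFBR2, the type II receptor, was at 179 CPM in the HCCLM3 control and 128 with ligand (log2 change -0.49, -0.56 to -0.41). TGFBR1, the type I receptor, was at 22.94 and 32.35 CPM (0.49, 0.32 to 0.67). The type I receptor of activin, ACVR1B, had a change of -0.36, and LTBP2, a latent TGF-β binding protein of the matrix, a change of 0.88. SMAD3 had a change of -0.03 and TGFB2 of 0.16. The receptors thus had changes of opposite sign, and the same signs stood in both other lines, with -0.67 and -0.62 for TGFBR2 and 0.43 and 0.39 for TGFBR1. Of the 23 listed pathway components 10 were members, 7 were fractional and 6 were under the threshold, so the count covers the 10 only. The median of the 10 was -0.07, against -0.002 over all members, and it was 0.058 with the fractional components kept.

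The list of SMAD targets held 25 members of 37 listed genes, with 9 fractional, among them SKIL, 2 under the threshold and 1 not found. Of the 25, 11 rose, none fell, and 18 were 1.5-fold or more higher. Over all members, 1.15% rose, 0.213% fell and 3.43% were 1.5-fold or more higher. The list was written with earlier results of these data known, so its counts are not independent of them. The median of the 25 was 0.96 in HCCLM3, 0.895 in MHCC97L and 1.27 in MHCC97H, against -0.002, 0.029 and 0.03 over all members. JUNB, an AP-1 subunit, went from 117 to 535 CPM in HCCLM3 (2.19, 2.12 to 2.25), from 88.7 to 399 in MHCC97L and from 64.3 to 397 in MHCC97H. HCCLM3 had the highest JUNB level in both conditions. HOOK2 overlaps JUNB on the opposite strand. GADD45B, a stress-responsive adaptor of MAP kinase signalling, went from 15.6 to 44.8 CPM (1.52, 1.34 to 1.72). FSTL3, a secreted protein that binds activin, went from 157 to 361 CPM (1.20), and its changes of 1.55 in MHCC97L and 2.16 in MHCC97H were from lower control levels of 99.7 and 60.1 CPM. TGFBI, an extracellular adhesion protein, showed the same order: its control level was 336 CPM in HCCLM3 against 102 and 116, and its change was 1.03 against 1.60 and 1.62. CDKN1A, the p21 inhibitor of cyclin-dependent kinases, went from 64.1 to 128 CPM in HCCLM3, just short of 2-fold, with changes of 1.21 and 1.43 in the other lines. The remaining listed members near no change were BAMBI (-0.002), a decoy receptor, SMAD6 (0.20), SMURF1 (0.22), TGIF1 (0.24) and TSC22D1 (-0.26).

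**Figure D2:**
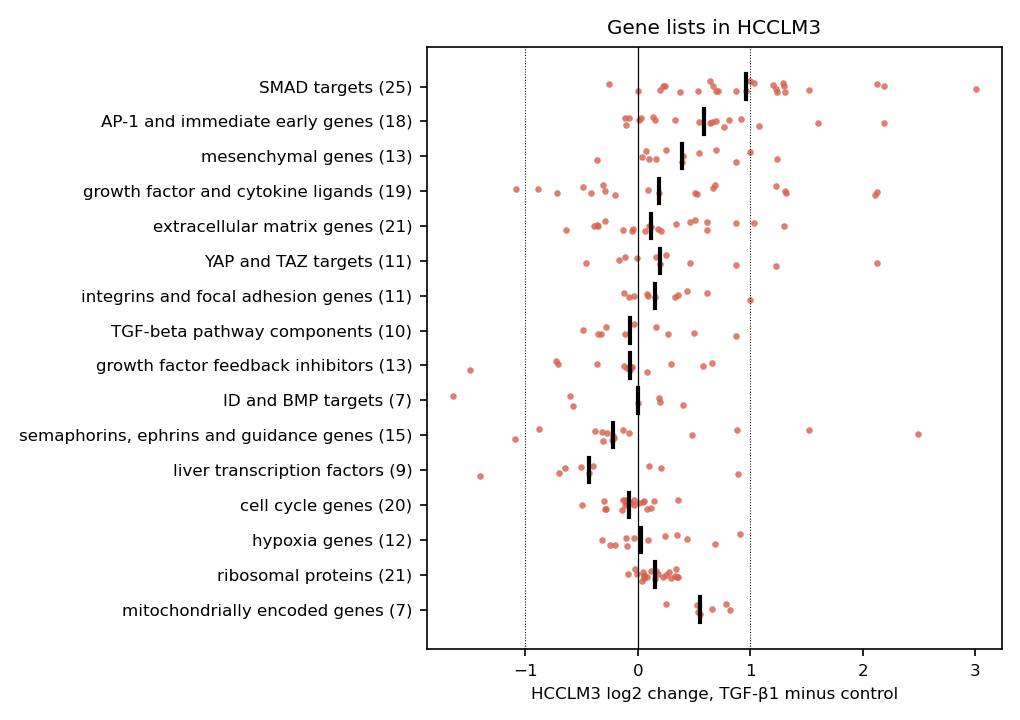
Points are the HCCLM3 log2 changes of the members on 16 of the 39 gene lists (number of members in brackets), thick bars their medians, and dotted lines 2-fold. The lists were written with earlier results of these data known. SMAD targets have the highest median, 0.96, followed by AP-1 and immediate early genes at 0.59 and mitochondrially encoded genes at 0.555, and liver transcription factors have the lowest, -0.44.

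Immediate early genes, which respond to many stimuli without new protein synthesis, stood next to the SMAD targets, a list that shares JUNB and KLF10 with them. Of 18 members of 29 listed, 3 rose (JUNB, EGR2 and KLF2), none fell, and 9 were 1.5-fold higher. Over all members, 1.15% rose and 3.43% were 1.5-fold or more higher. The median of the 18 was 0.59 in HCCLM3, 0.19 in MHCC97L and 0.44 in MHCC97H. EGR2, a zinc finger factor, went from 6.48 to 19.9 CPM in HCCLM3, from 8.13 to 26.8 in MHCC97L and from 3.14 to 18.2 in MHCC97H. ATF3, a stress-induced factor, was at 10.51 and 17.97 CPM in HCCLM3 (0.77, 0.52 to 1.03) and had changes of 0.07 and 0.48 in the other lines. JUN had a change of 0.81 in HCCLM3 against 1.02 and 1.58, and MYC, FOSL1, FOSL2, JUND and SRF lay between -0.11 and 0.13 in HCCLM3. Among lineage factors KLF7 (1.49) and ETS2 (1.32) rose. ETS2 went from 74.2 to 185 CPM in HCCLM3, while its changes of 0.74 and 0.90 in MHCC97L and MHCC97H stayed under 2-fold.

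Secreted ligands moved in both directions. Of 19 members of 40 listed, 5 rose (CCN1, PDGFB, PDGFA, PTHLH and CCN2) and 1 fell (KITLG), with a median of 0.18. Over all members, 1.15% rose and 0.213% fell. CCN1, a matricellular protein that binds integrins, went from 9.35 to 41.2 CPM in HCCLM3 (2.13, 1.90 to 2.38), from 7.83 to 18.4 in MHCC97L and from 5.76 to 27.7 in MHCC97H. Its change was thus smallest in MHCC97L, where the interval of 0.98 to 1.49 lay apart from that of HCCLM3. CCN2, its close relative and a classical TGF-β target, went from 11.7 to 27.4 CPM in HCCLM3 (1.22, 1.003 to 1.46), between the changes of 0.73 in MHCC97L and 1.58 in MHCC97H. PDGFB, a growth factor for stellate cells and pericytes, went from 38.5 to 166 CPM in HCCLM3, from 13.6 to 104 in MHCC97L and from 7.62 to 79.5 in MHCC97H. HCCLM3 therefore had the highest PDGFB in both conditions and the smallest change, 2.11 (1.99 to 2.23) against 2.93 and 3.37. PDGFA, its paralogue, had a change of 1.31 in HCCLM3, 0.94 in MHCC97L and 1.303 in MHCC97H. PTHLH, the parathyroid hormone-like hormone, went from 39.1 to 96.8 CPM in HCCLM3, where its control level was above the ligand level of both other lines (16.7 and 24.9). KITLG, the ligand of the KIT receptor, went from 15.6 to 7.31 CPM (-1.08, -1.38 to -0.80) and had -1.20 in each other line. PTHLH, KITLG and CCN2 each overlap a transcript on the opposite strand.

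Cell surface, adhesion and matrix genes gave several of the largest rises. RND1, a small GTPase that loosens actin adhesions, went from 8.23 to 63.9 CPM in HCCLM3 (2.94, 2.71 to 3.21), from 10.0 to 61.0 in MHCC97L and from 9.29 to 65.1 in MHCC97H. Its levels in the 3 lines were close in each condition. SEMA7A, a membrane-anchored semaphorin that signals through integrins, went from 17.3 to 97.6 CPM (2.49), beside 2.09 and 2.94. EFNA1, an ephrin, went from 32.2 to 92.8 CPM (1.52, 1.40 to 1.66), and here the change was larger than the 1.27 of MHCC97L and the 0.84 of MHCC97H. CLDN14, a tight junction claudin, went from 2.44 to 10.7 CPM, and LPAR5, a receptor for lysophosphatidic acid, from 3.13 to 11.8. CLDN14 and LPAR5 were under 10 CPM in all 4 libraries of the other lines, as were DLX2, a homeobox factor (4.30 to 11.5 CPM in HCCLM3), and COL7A1, the anchoring fibril collagen (6.05 to 15.1). Those 4 belong to 118 members with that low level in the other lines, and their changes there were nevertheless between 1.61 and 3.13.

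Of 21 matrix members of 34 listed, COL7A1 and TGFBI rose and none fell, where 1.15% of all members rose and 0.213% fell. LAMA3, a laminin chain of epithelial basement membranes, had a change of -0.64, FN1, fibronectin, of -0.36 and SPARC, a collagen-binding matricellular protein, of 0.87. Of 13 mesenchymal members, SNAI2 alone rose, from 16.3 to 38.5 CPM (1.23, 1.05 to 1.43), SNAI1 had a change of 0.70 and VIM, vimentin, of 0.39. ZEB1, a repressor of epithelial genes, had a change of 0.54 (0.39 to 0.70) in HCCLM3 against 0.05 and -0.17 in the other lines. ITGA5, the fibronectin receptor chain, went from 187 to 372 CPM (0.99), just under 2-fold. Among 12 proteases and inhibitors, FURIN, the convertase that processes the TGF-β precursor, rose from 67.0 to 139 CPM (1.06), and MMP2, MMP14, TIMP1 and SERPINE2 lay between -0.01 and 0.27. Only 3 of 30 listed epithelial genes were members: JUP (0.51), PKP3 (-0.01) and DSP (-0.004), which are desmosomal plaque genes. Of the others, 17 were under the threshold and 10 were left out for fractional counts, among them KRT8, KRT18, KRT19 and CLDN4. The median of this list was -0.004, and 0.144 with fractional counts kept.

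Inside the cell, ULK1, the kinase that starts autophagy, went from 85.55 to 300.37 CPM in HCCLM3 (1.81, 1.73 to 1.89), from 76.7 to 290 in MHCC97L and from 68.1 to 319 in MHCC97H. KDM6B, a demethylase of histone H3 lysine 27, went from 34.1 to 110 CPM in HCCLM3 (1.68, 1.56 to 1.81), from 27.6 to 54.2 in MHCC97L and from 22.8 to 48.9 in MHCC97H. HCCLM3 had the largest KDM6B change, and its interval met neither 0.83 to 1.11 nor 0.95 to 1.26. KCTD11, an adaptor of cullin ubiquitin ligases, went from 15.98 to 60.68 CPM (1.92), with 1.92 and 1.77 in the other lines. LBH, a transcription cofactor, went from 92.2 to 273 CPM (1.56). The splicing factor SRRM3 (1.75), the secreted olfactomedin OLFM2 (1.64), ARID5A (1.297), which stabilises inflammatory transcripts, and CITED4 (1.35), a coactivator of the CITED family, also rose.

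The 10 genes that fell were ATOH8, SPRY1, CEBPA, SOX2, IGFBP1, FLRT3, KITLG, NFKBIZ, MERTK and AGFG2. ATOH8, a bHLH factor known as a BMP target, went from 16.1 to 5.08 CPM in HCCLM3 (-1.64, -1.996 to -1.337), from 6.26 to 3.55 in MHCC97L and from 10.6 to 4.77 in MHCC97H. SPRY1, a feedback inhibitor of growth factor receptors, went from 12.3 to 4.31 CPM (-1.49), beside -1.04 and -1.44. SOX2, a stem cell factor, went from 24.4 to 9.20 CPM in HCCLM3 (-1.40), and its control level there was above the 9.61 and 13.7 CPM of the other lines. The changes of these 3 genes had the same sign in every line.

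FLRT3, a membrane protein that binds FGF receptors, had -1.09, -0.97 and -1.01 in HCCLM3, MHCC97L and MHCC97H. MERTK, a receptor for apoptotic cells, had -1.01, -1.06 and -1.15. NFKBIZ, a nuclear IκB protein, had -1.05, -0.81 and -0.99. Those changes were alike in size across the lines. ST3GAL5, the synthase of ganglioside GM3, was at 73.0 and 36.6 CPM, just short of 2-fold, and had -0.50 and -0.53 in the other lines. The other genes among the 15 largest decreases were PPM1H (-0.94), a phosphatase, FLG (-0.93), filaggrin, CITED2 and DAPK1 (-0.91), a death-associated kinase.

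**Figure D3:**
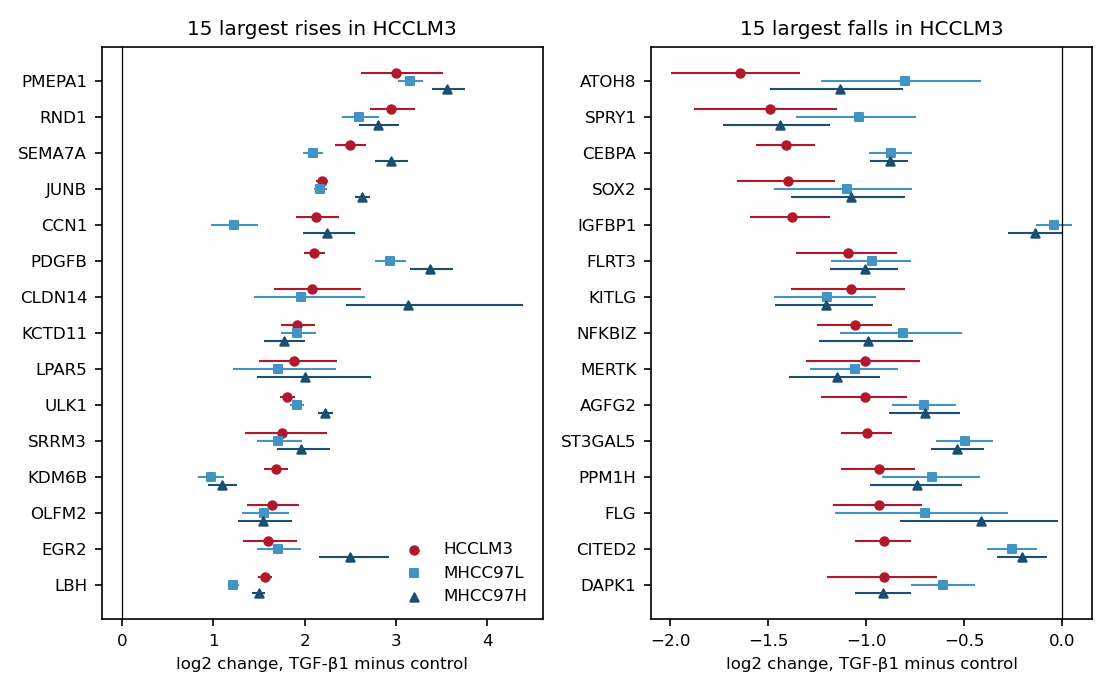
Log2 changes (TGF-β1 minus control) of the 15 largest rises and 15 largest decreases in HCCLM3, with the same genes in MHCC97L and MHCC97H. Lines are 95% counting intervals of 2 libraries; IGFBP1 and CITED2 stand apart on the right panel, with HCCLM3 at -1.38 and -0.91 and the other lines between -0.25 and -0.04.

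Liver transcription factors had the lowest median of the named lists with 5 or more members, -0.44 in HCCLM3 against -0.13 in MHCC97L and -0.33 in MHCC97H. Of 9 members of 26 listed, CEBPA fell and none rose, where 0.213% of all members fell and 1.15% rose. CEBPA, a factor of hepatocyte differentiation, went from 66.2 to 24.9 CPM in HCCLM3 (-1.41, -1.56 to -1.26), from 87.8 to 47.9 in MHCC97L and from 109 to 59.3 in MHCC97H. HCCLM3 had the lowest CEBPA in both conditions and the largest decrease, with an interval below both others, and 2 transcripts overlap the gene on the opposite strand. GATA4 had -0.71, TBX3 -0.65, NR2F2 -0.51, FOXA2 -0.44 and RXRA -0.40 in HCCLM3. GATA6 went the other way, from 29.9 to 55.5 CPM (0.89), beside 0.55 and 0.58. HNF4A was 1 of 7 fractional factors on the list, and 10 more were under the threshold, so the median covers only 9 of the 26.

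Of the ID genes, which encode inhibitors of bHLH factors and are BMP targets, ID1 was at 517 CPM in the HCCLM3 control and 340 with ligand (-0.61, -0.65 to -0.56). In MHCC97L it was at 332 and 303 CPM, and in MHCC97H at 390 and 422. The ID1 change thus had no common sign, with -0.13 and 0.12 in the other lines. ID2 had -0.58, -0.71 and -0.74. Neither ID gene reached 2-fold.

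The other lists gave few changes past 2-fold. None of 20 cell cycle genes passed it, with a median of -0.08 and CDC25A, a phosphatase that activates cyclin-dependent kinases, lowest at -0.50. The lists of hypoxia genes (12 members), unfolded protein and ATF4 genes (14), cholesterol and fatty acid synthesis genes (15), p53 targets (5), interferon-stimulated genes (5), Hippo pathway components (4) and ribosomal proteins (21) likewise had none. With 1.15% of all members higher and 0.213% lower, a count of 0 in lists of this size is near the background and is not a result about them. SLC2A1, the glucose transporter, had a change of 0.91 and VEGFA of 0.69. YAP and TAZ targets had 2 of 11 past 2-fold, CCN1 and CCN2, and ANKRD1, another target, had 0.87. Among 11 WNT and Notch genes only LFNG rose (1.04), a glycosyltransferase of Notch receptors.

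Set beside the other lines, HCCLM3 shared most of its rises. Over the same 4698 members, 50 rose (1.06%) and 7 fell (0.149%) in MHCC97L, and 76 rose (1.62%) and 12 fell (0.255%) in MHCC97H. With MHCC97L, 39 rises were shared, 72.2% of those of HCCLM3 and 78% of those of MHCC97L. With MHCC97H, 43 were shared, 79.6% and 56.6%. In all 3 lines 36 genes rose and 4 fell. The 44 members that rose in both MHCC97 lines all had a change above 0 in HCCLM3, with a median of 1.303 and the lowest, 0.54, for MEX3B, and 36 of them rose there too. Across the 4698 members the change in HCCLM3 correlated with that in MHCC97L at r = 0.735 (Spearman 0.591) and with MHCC97H at r = 0.655 (0.47), while MHCC97L and MHCC97H gave 0.867 (0.818). Each correlation is across genes of 2 pairs of libraries, and genes are not independent replicates.

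Past 2-fold in HCCLM3 alone were 8 rises, ETS2, FERMT1, FRMD6, GLIS3, OXTR, SPSB1, UBL3 and ZNF697, and 4 falls, AGFG2, CEBPA, IGFBP1 and NFKBIZ, most of them with a smaller change of the same sign elsewhere. FERMT1, the integrin activator kindlin-1, went from 46.6 to 104 CPM (1.16, against 0.46 and 0.64). SPSB1, a SOCS box adaptor of ubiquitin ligases, went from 34.7 to 82.7 CPM (1.25, against 0.55 and 0.71). UBL3, a ubiquitin-like protein, went from 13.2 to 27.4 CPM in HCCLM3 (1.05, 0.83 to 1.27), from 13.8 to 16.7 in MHCC97L and from 16.1 to 18.2 in MHCC97H. Controls of UBL3 were thus close in the 3 lines and only the HCCLM3 library with ligand was high. OXTR, the oxytocin receptor, went from 8.18 to 16.9 CPM in HCCLM3 (1.03, 0.76 to 1.33), from 20.01 to 14.17 in MHCC97L and from 8.29 to 8.16 in MHCC97H. It was the only 1 of the 54 with a change below 0 in another line.

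IGFBP1, a hepatic binding protein of insulin-like growth factors on chromosome 7 at 45888357 to 45893668 (GRCh38, plus strand), had the decrease farthest below both other lines. Its level went from 35.7 to 13.7 CPM in HCCLM3 (-1.38, -1.59 to -1.18), from 85.3 to 82.9 in MHCC97L and from 39.6 to 36.0 in MHCC97H. The HCCLM3 control was close to that of MHCC97H, and only the HCCLM3 library with ligand was low. CITED2, a coregulator that competes for CBP and p300, went from 57.8 to 30.7 CPM in HCCLM3 (-0.91, -1.06 to -0.77), from 47.7 to 40.0 in MHCC97L and from 48.1 to 41.8 in MHCC97H. CA9, a carbonic anhydrase known as a hypoxia gene, went from 45.1 to 36.1 CPM in HCCLM3 (-0.32, -0.47 to -0.18), while it went from 16.7 to 29.3 in MHCC97L and from 17.2 to 27.8 in MHCC97H. The CA9 levels of the lines were therefore closer with ligand than in the controls. FBXL15, MICU2, STK32C and RAC3 were also among the 8 farthest below, with HCCLM3 changes between -0.47 and -0.29 at levels under 20 CPM.

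**Figure D4:**
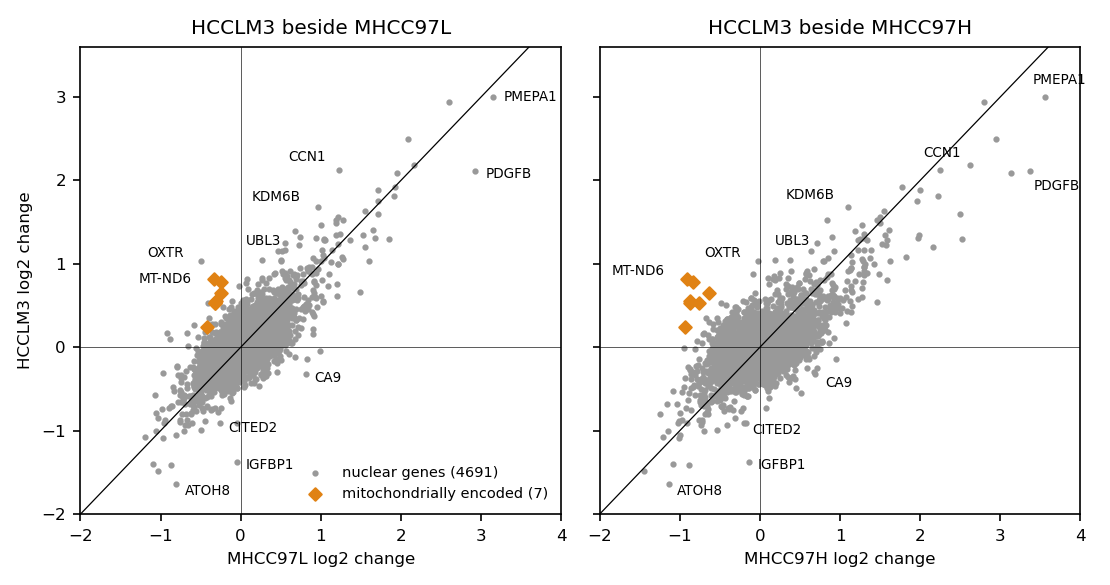
HCCLM3 log2 change of each member (vertical) against its change in MHCC97L (left) and MHCC97H (right), with the line of equal change. Most points with large changes follow the diagonal, the 7 mitochondrially encoded members lie above 0 in HCCLM3 and below 0 in both other lines, and IGFBP1 lies far below the line.

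A member stood apart in a line when its interval there met neither of the other 2 intervals and its change was above or below both. That held for 821 members (17.5%) in HCCLM3, 291 above (6.19%) and 530 below (11.3%), for 565 (12%) in MHCC97H, above for 7.77% and below for 4.26%, and for 92 (1.96%) in MHCC97L, 0.788% and 1.17%. Since the intervals hold no spread between cultures, these counts include any difference between single cultures. Members with a change opposite to both other lines, all 3 intervals clear of 0, were 56 higher and 84 lower in HCCLM3, 19 and 18 in MHCC97H and 1 and 5 in MHCC97L. Of those in HCCLM3, 3 of the 56 were 1.5-fold or more higher, MT-ND6, MT-ND3 and MT-ND1, and 0 of the 84 were 1.5-fold or more lower.

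Mitochondrially encoded genes, which give subunits of the respiratory chain, filled 6 of the 8 places farthest above both other lines. MT-ND6, of complex I, went from 431 to 758 CPM in HCCLM3 (0.815), from 638 to 505 in MHCC97L and from 634 to 337 in MHCC97H. MT-ND3 had 0.781, -0.24 and -0.83, and MT-ND1 0.654, -0.24 and -0.64. The 7 members of the list had a median of 0.555 in HCCLM3, -0.32 in MHCC97L and -0.87 in MHCC97H. The 13 mitochondrially encoded genes together, fractional ones included, took 4.76% of the counts in the HCCLM3 control and 6.55% with ligand, against 6.15% and 5.03% in MHCC97L and 6.17% and 3.67% in MHCC97H. HCCLM3 thus had the lowest share of the controls and the highest with ligand. This share moved with the ligand in opposite directions between lines, and its part in the other differences was not tested. With the mitochondrially encoded genes left out of the scaling, 56 members rose, 8 fell and 801 stood apart in HCCLM3.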

How the data were processed

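RNA was measured by sequencing in 6 libraries, 1 for each of 3 cell lines and 2 conditions, grouped by the labels. The authors deposited expected counts per Ensembl gene ID, 1 table per library; the unit was read from the values, which include fractions. The submitters' processing notes list the build hg38 and, without roles, Cuffdiff 1.3.0, Cufflinks 2.2.1 and TopHat2 2.1.1. The counting tool, its annotation and its use of strand are not given in the sources used here. Of 22091 IDs, 19574 were given a symbol from the reference names or GENCODE 29, which also gave coordinates.

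Expected counts were rounded, and libraries were scaled by TMM in edgeR 4.0.16 over 14176 genes kept by filterByExpr. Each change is a log2 ratio of CPM after a prior count of 2 was added, and intervals are 95% exact conditional binomial intervals. A count of 0 allows up to 3 counts, or 0.159 CPM in the HCCLM3 control and 0.145 with ligand. The calculation was run on simulated counts with counting error only, which cannot show how the intervals behave with spread between cultures. With 1 library per line and condition no test was run. Alternatives changed the scaling, the prior count, the CPM threshold, the use of fractional counts and the fold.

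The members and the 39 gene lists were chosen with earlier results of these data known. The text names the 15 largest changes in each direction, the 8 members farthest above and below both other lines, those low in the other lines (1 of which is not reported here), those opposite to both, list members by size of change, and CCN1. Other genes named were chosen after their values were seen.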

Additional observations from a re-analysis of the deposited data

Results flagged for a closer look

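The changes below had a sign in HCCLM3 opposite to that in both MHCC97L and MHCC97H, with 1 pair of libraries per line, and the difference between lines was not tested. Higher with ligand in HCCLM3 and lower in the other lines were MT-ND6 (log2 change 0.815 in HCCLM3), MT-ND3 (0.781), MT-ND1 (0.654), MT-ND4 (0.555), MT-ND5 (0.532) and MT-CYB (0.527). MECOM, a zinc finger factor, had 0.536 in HCCLM3 against -0.41 and -0.48. RPS28, a ribosomal protein, had 0.343 against -0.14 and -0.40. Lower in HCCLM3 and higher in the other lines were CA9 (-0.321), FBXL15 (-0.292), a subunit of ubiquitin ligases, STK32C (-0.341), a kinase, and RAC3 (-0.368), a small GTPase. MECOM, FBXL15, STK32C and RAC3 had levels under 20 CPM in both HCCLM3 libraries, while MT-ND4 was at 7912 and 11622 CPM. CA9 and FBXL15 overlap genes on the opposite strand, ARHGEF39 and PSD, and RPS28 overlaps NDUFA7 and KANK3.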

How the results depend on the processing

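The 54 rises, 10 falls and 821 members apart were recomputed under other settings. With a threshold of 20 CPM, 5 members fell. With fractional counts kept, 108 rose, 28 fell and 1654 stood apart. At 1.5-fold 161 rose and 69 fell, and at 3-fold 14 rose and 1 fell. Under the other settings the counts stayed within 1.5 times: rises ran from 38 (20 CPM) to 68 (5 CPM), and falls from 8 to 15. Scaling by library totals alone gave 43 rises and 14 falls. The other sign was taken by 3 gene changes (TEAD2, ADSS1 and DSP, at most 0.053 from 0) and 17 list medians. Among those medians were the liver cancer cell markers (-0.282, and 0.006 with fractional counts kept) and the hepatocyte genes (-0.244, and 0.107 with a threshold of 5 CPM). Each of those lists has 2 members. The changes of the named genes were recomputed under several settings, with each gene counted once per setting. Of these values, 1065 lay inside the counting interval of the main change and 34 outside it. The scaling without mitochondrially encoded genes was chosen after seeing the data. No paired analysis was possible because the comparison is within HCCLM3, which has 1 pair of libraries, and no library could be left out for the same reason; a fit over the 3 lines would measure their common response and was not run. Culture-to-culture spread is unknown, so the counts of members apart hold only for these libraries. Members near 10 CPM have wide intervals, as the ATOH8 interval of -1.996 to -1.337 shows. Changes of genes with fractional counts, among them SKIL, IL11 and ANGPTL4, were not described.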
